A study of Arabidopsis thaliana with 8 samples.

Results

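A set of 146 Arabidopsis thaliana genes whose transcripts were higher in Alc::LHY seedlings than in wild type from 2 h after ethanol, and stayed higher to the end of the series, was examined on 2-colour arrays. The genes were taken from the authors' deposited log10 ratios of Alc::LHY over wild type. A row of that table qualified when its mean at 2 h lay between 0.5 and 1.1, all 4 values at 4 h and 8-9 h were at least 0.4, and both values at 0 h lay within 0.15 of 0. At least 1 of the 2 dyes also had to be well above background, a flag set by the scanner software, on all 6 arrays after ethanol. The conditions were met by 172 rows, which belong to 135 annotated loci and 11 transcripts without a locus. They were drawn from 19265 genes that met the background condition, of 34285 genes or transcripts on the array. The members were thus chosen by the measured ratios at 0, 2, 4 and 8-9 h, so the ratios given here describe them and carry no test.

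Each of 8 arrays compared RNA of Alc::LHY seedlings with RNA of wild-type seedlings. Both lines are in the Col-0 background. Alc::LHY plants carry a copy of LHY behind an alcohol-inducible promoter, and the wild-type plants (wt) do not. All plants spent 2 weeks on agar under 12 h photoperiods and 17 h in constant light before ethanol (5 ml to the roots, then vapour), and the labels give this one treatment for both dyes. RNA of whole seedlings was taken at 0, 2 and 4 h in replicates S and I, and last at 9 h in the S series and at 8 h in the I series, called 8-9 h here. No line held the ethanol switch without LHY, so effects of LHY, of the switch and of the line cannot be told apart. Alc::LHY RNA was labelled with Cy5 for S and with Cy3 for I, which makes dye and replicate the same split. The labels do not say whether S and I were grown separately, and the standard errors and p-values cover only the scatter of these arrays, possibly a technical one.

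LHY is a MYB-like transcription factor of the plant circadian clock whose own transcript peaks around dawn. Together with its partner CCA1 it is best known for binding the promoters of evening genes and repressing them. In the alcohol switch, the fungal activator AlcR becomes active in the presence of ethanol and turns on the promoter placed in front of the gene of interest. In whole seedlings, a change in the level per cell and a change in the share of the cells that hold a transcript cannot be told apart.

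The probe for LHY itself was dim. Its log2 ratio of Alc::LHY over wild type was 0.18 and -0.14 at 0 h in replicates S and I, 0.97 and 0.17 at 2 h, 0.51 and 0.26 at 4 h, and 0.35 and 0.13 at 8-9 h. It was well above background in Alc::LHY on all 6 arrays after ethanol, and in wild type on the 4 arrays at 4 h and 8-9 h only. Which part of the transcript the probe covers was not analysed here. No gene of the marker lists for root cells, leaf mesophyll, guard cells, anther and pollen coat, or seed was in the set. The set is 146 of the 19265 genes that met the background condition, so nothing is read from this. Markers did change outside the set, by limma with an adjusted p under 0.05 in Alc::LHY against wild type. By the same test, 6.36%, 17.3% and 16.8% of all genes tested were higher at 2, 4 and 8-9 h. The shares that were lower were 7.82%, 19.4% and 20.0%. Of 9 root genes measured, 2, 1 and 1 were higher and 2, 2 and 2 lower at 2, 4 and 8-9 h. The root hair gene COBL9 had fitted log2 ratios of 2.08, 1.70 and 2.71 (each ± 0.28). At 0 h COBL9 was lower in Alc::LHY than in wild type in replicate S, but not in replicate I. EXPA7, the other root gene that was higher at 2 h, had 2.13, 0.39 and 0.19 (each ± 0.44). CASP1, WER, MYB36, RHD6 and RSL4 passed the test at none of these times. SHR, a regulator of root patterning, had -0.83, -1.22 and -1.17 (each ± 0.10) and its partner SCR -0.76, -1.03 and -0.81 (each ± 0.12). Of 6 mesophyll genes, 0, 4 and 4 were lower at these times, and the list's median was -0.41, -0.71 and -0.66. Of 5 guard cell genes, MYB60 and KAT1 were lower at all 3 times, and of 6 seed genes 2 were lower at 4 h. For the anther and pollen coat list 0 of 7 genes were measured. The part of these marker changes in the ratios of the set was not tested.

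All 146 genes passed the filter on dim probes that preceded the fit over 21471 genes. Ratios from here on are on the log2 scale, with Alc::LHY as numerator, recomputed from the spot signals with loess normalization, with their standard errors from limma's linear model (n = 2 arrays per time). The median over the 146 genes was 0.05 at 0 h, 1.67 at 2 h, 1.76 at 4 h and 1.71 at 8-9 h. On the linear scale these medians after ethanol equal 3.17-fold, 3.39-fold and 3.27-fold. The median over all genes tested lay within 0.02 of 0 at each time, at 0.01, 0.00, -0.01 and -0.01. Single genes ranged between 0.12 and 3.41 at 2 h, between 0.48 and 4.03 at 4 h, and between 0.48 and 3.80 at 8-9 h. A ratio over 1 was found for 121 of the 146 at 2 h, 129 at 4 h and 133 at 8-9 h, against 2.83%, 3.32% and 2.86% of all genes tested. An adjusted p under 0.05 with a higher level in Alc::LHY was found for 136, 146 and 145 of the 146 at 2, 4 and 8-9 h. In that direction 6.36%, 17.3% and 16.8% of all genes tested passed. The rule used the same contrasts, so nothing is read from these counts.

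Replicate S gave larger ratios than replicate I at 2 h and 4 h. The set's medians were 1.83 (S) and 1.47 (I) at 2 h, 1.87 and 1.66 at 4 h, and 1.66 and 1.73 at 8-9 h. The ratio was larger in replicate S for 124 of the 146 genes at 2 h, for 118 at 4 h and for 72 at 8-9 h. The median distance between the replicates was 0.48, 0.27 and 0.19 at the same times. Dye, slide and replicate move together here, and their part in this difference was not tested.

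**Figure D1:**
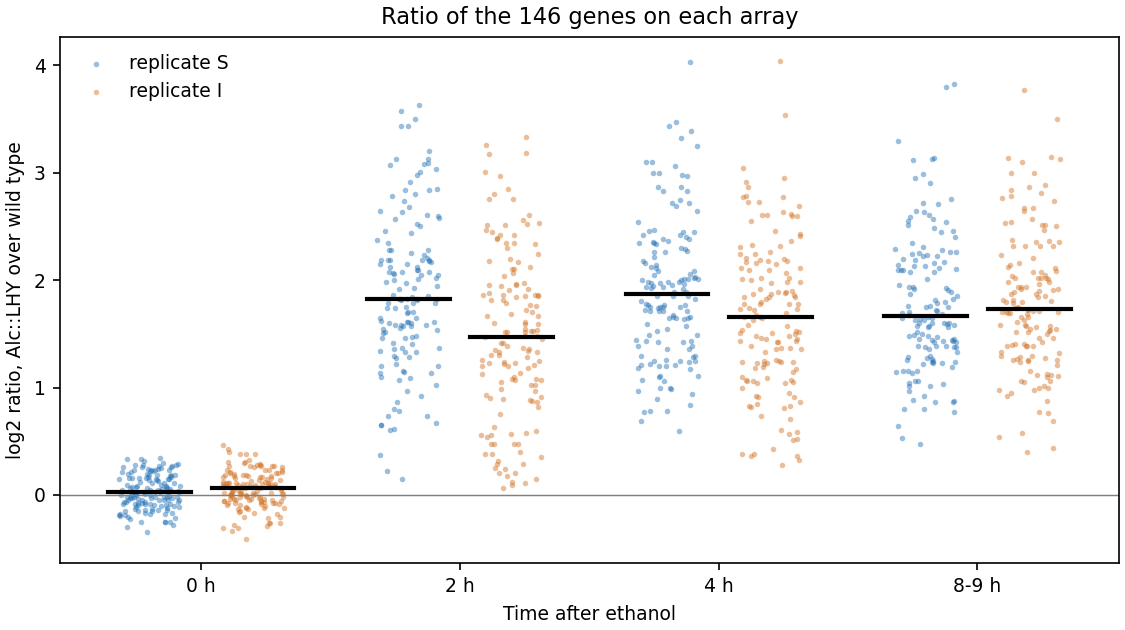
Log2 ratio of Alc::LHY over wild type (vertical axis) for the 146 genes at each time after ethanol (horizontal axis), 1 point per gene and array, with replicate S in blue and replicate I in orange and the median of each array as a black bar. The medians lie at 0.02 and 0.07 at 0 h and between 1.47 and 1.87 on the 6 arrays after ethanol.

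The time course of each line was read from the separate signals of the 2 dyes. In Alc::LHY the median change from 0 h was 1.69 at 2 h, 1.69 at 4 h and 1.69 at 8-9 h, and 146 of the 146 changes were above 0 at each time. In wild type the median change was 0.02, -0.05 and 0.00, with 82, 60 and 72 of the 146 above 0. The wild-type change stayed within 0.5 of 0 for 140, 139 and 138 genes. Most of the set thus moved in Alc::LHY while wild type stayed near its level at 0 h. By limma's separate-channel fit, 132, 145 and 144 genes had risen in Alc::LHY at 2, 4 and 8-9 h and 0 had fallen, against 7.3%, 13.6% and 17.4% of all 21412 genes that rose and 7.52%, 14.4% and 16.7% that fell. The Alc::LHY signal is the numerator of the ratio the rule used, so these counts are descriptions too.

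Within wild type, 0 genes of the set passed limma's test at 2 h, 0 at 4 h and 2 at 8-9 h, both of the 2 higher than at 0 h. Among all 21412 genes, 0.0514% had risen and 0.00467% had fallen at 2 h, 0.528% and 0.28% at 4 h, and 2.34% and 1.46% at 8-9 h. At an unadjusted p under 0.05 the set had 7, 15 and 11 genes. The share of all genes at this unadjusted threshold was not computed, so nothing is read from these counts. The 2 that passed were CAMBP25, which encodes a calmodulin-binding protein, and TAAC, a carrier of adenine nucleotides in the thylakoid membrane. CAMBP25 changed by 0.78 ± 0.18 (limma, adjusted p = 0.0464) and TAAC by 0.61 ± 0.14 (limma, adjusted p = 0.0409) in wild type at 8-9 h. Leaving out any 1 of the 4 arrays at 0 h and 8-9 h left 0 calls in wild type at 8-9 h. Wild type is the denominator of the ratio that chose these genes, so this contrast is not independent of the choice.

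**Figure D2:**
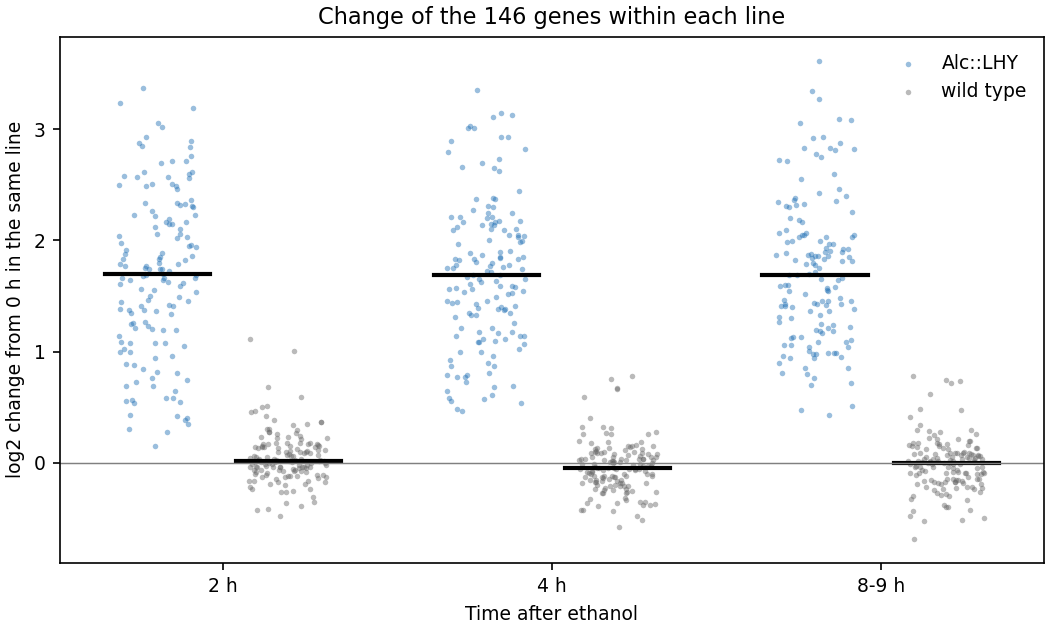
Log2 change from 0 h in the same line (vertical axis) at 2, 4 and 8-9 h after ethanol (horizontal axis), 1 point per gene, with Alc::LHY in blue to the left, wild type in grey to the right and medians as black bars. The Alc::LHY medians are 1.69 at all 3 times, while the wild-type medians lie between -0.05 and 0.02.

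Sulfur, serine and glucosinolate metabolism was represented by 4 genes. The groups of genes described here were put together from the annotation after the members were known, and cover 49 of the 146. The 4 genes of this group had ratios of 2.35 to 3.08 at 2 h, 1.65 to 4.03 at 4 h and 1.25 to 3.80 at 8-9 h. APS4 (AT5G43780) encodes an ATP sulfurylase, the enzyme that activates sulfate for its reduction. Its level in Alc::LHY, as normalized log2 intensity in replicates S and I, was 11.02 and 11.39 at 0 h, 13.63 and 14.21 at 2 h, 14.45 and 14.66 at 4 h, and 14.03 and 14.48 at 8-9 h. In wild type the levels were 10.68 and 11.20, 10.56 and 11.20, 10.42 and 10.61, and 10.21 and 10.71. All 6 Alc::LHY levels after ethanol lay above all wild-type levels. The ratio was 3.04, 4.03 and 3.80 (each ± 0.09) at 2, 4 and 8-9 h, or 8.23-fold, 16.4-fold and 13.9-fold. Its other measured probes gave smaller ratios, 0.72 and 1.41 at 4 h, which is the largest disagreement between probes of a gene in the set.

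SERAT1;1 (AT5G56760), a serine acetyltransferase that makes the carbon skeleton of cysteine, had ratios of 3.00 and 2.75 at 2 h, 2.98 and 2.60 at 4 h, and 2.71 and 2.78 at 8-9 h. The fitted ratios were 2.88, 2.79 and 2.75 (each ± 0.11), or 7.35-fold, 6.93-fold and 6.72-fold. AT2G17630, annotated as PSAT2, a phosphoserine aminotransferase of serine synthesis, had ratios of 2.28 and 2.42 at 2 h, 2.72 and 2.72 at 4 h, and 2.31 and 2.83 at 8-9 h. FMO GS-OX5 (AT1G12140), which oxidises the sulfur of methionine-derived glucosinolates, had ratios of 3.20 and 2.97 at 2 h, 1.93 and 1.37 at 4 h, and 1.23 and 1.28 at 8-9 h. It had the largest drop between 2 h and 8-9 h in the set, and was 8.48-fold, 3.13-fold and 2.38-fold higher at 2, 4 and 8-9 h.

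Among 5 genes of phosphate, nitrate and carbon supply, PAP17 (AT3G17790) had the highest ratio of the set at 2 h. It encodes a purple acid phosphatase known from phosphate-starved and senescing plants. Levels in Alc::LHY were 12.34 and 11.99 at 0 h, 15.23 and 15.56 at 2 h, 15.32 and 15.07 at 4 h, and 15 and 15.17 at 8-9 h. In wild type they were 12.23 and 12.27, 11.60 and 12.38, 12.22 and 12.03, and 11.86 and 12.04. The ranges of the lines after ethanol were apart by more than 2 log2 units. Fitted ratios were 3.41, 3.07 and 3.13 (each ± 0.12), or 10.6-fold, 8.4-fold and 8.77-fold. GPDHp (AT5G40610), a plastid glycerol-3-phosphate dehydrogenase that supplies glycerolipid synthesis, had ratios of 2.34 and 2.80, 2.86 and 2.95, and 2.90 and 3.13. PPCK2 (AT3G04530), the kinase that phosphorylates phosphoenolpyruvate carboxylase, had fitted ratios of 1.04, 1.14 and 1.57 (each ± 0.16). MGDC (AT2G11810), also called MGD3, makes galactolipids that replace phospholipids under phosphate starvation. Its ratio was 2.19 and 1.13 at 2 h, 1.65 and 1.19 at 4 h, and 1.06 and 1.38 at 8-9 h.

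MGD3 was the only member of a list of 5 phosphate starvation genes, and PAP17 is not on that list. None of the other 4 listed genes passed the test as higher at 2, 4 or 8-9 h. At 8-9 h the ratio was -0.61 ± 0.11 for SPX1, a phosphate sensor, and -0.57 ± 0.12 for SQD2, an enzyme of sulfolipid synthesis. Both were lower in Alc::LHY than in wild type (limma, adjusted p = 0.00638 and 0.0136). The non-coding RNA IPS1 was at -0.37 ± 0.15 (limma, adjusted p = 0.105) and the phosphate transporter PHT1;4 at -0.31 ± 0.11 (limma, adjusted p = 0.0669). At 4 h PHT1;4 was lower, at -0.62 ± 0.11 (limma, adjusted p = 0.00689), as was SQD2, at -0.40 ± 0.12 (limma, adjusted p = 0.0437). Of all genes tested, 19.4% were lower in Alc::LHY than in wild type at 4 h and 20.0% at 8-9 h. Of the 8 iron deficiency genes 0 were in the set, from which nothing is read, as the set is 146 of 19265 genes. At 2 h 3 of the 8 were lower in Alc::LHY than in wild type and 1 was higher. At 4 h 8 were lower, and at 8-9 h 5 were lower. Of all genes tested, 7.82%, 19.4% and 20.0% were lower at these times. The iron gene that was higher at 2 h was the iron transporter IRT1, at 1.22 ± 0.28 (limma, adjusted p = 0.0322). IRT1 was at 0.33 in replicate S and 2.12 in replicate I at 2 h, and at -0.97 and 0.21 at 0 h.

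NRT2.5 (AT1G12940), a high-affinity nitrate transporter induced by nitrogen starvation, is a member with a different kind of measurement. In wild type it was not well above background on any array after ethanol. Its ratio was 0.65 and 0.07 at 2 h, 0.96 and 0.36 at 4 h, and 0.86 and 0.40 at 8-9 h, with the larger value in replicate S at each time. The bounds on this difference, explained with the next group of genes, were 1.27-fold, 1.58-fold and 1.55-fold from the means of both replicates. Each fitted log2 ratio had a standard error of 0.14. In Alc::LHY its change from 0 h did not pass limma's test at 2, 4 or 8-9 h.

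The dimness of the wild-type signal separates 13 genes from the other 133. The chosen probes of these 13 were not well above background in wild type on either array of at least 1 time after ethanol, 12 of them at 2 h, 10 at 4 h and 11 at 8-9 h. A bound is given for such a time, which divides the Alc::LHY mean by the wild-type signal or by the faintest signal that counted as well above background, whichever was higher. It rests on the means of both arrays and carries no error margin, so a single array can lie below it. The authors' table gave these 13 genes a median log2 ratio of 3.20 at 2 h, 3.88 at 4 h and 4.28 at 8-9 h, while the loess ratios had medians of 0.47, 0.66 and 0.99. For the other 133 genes the authors' medians were 2.32, 2.35 and 2.26, and the loess medians 1.74, 1.82 and 1.75. The 8 genes with the highest mean in the authors' table, 1.16 to 1.48 on the log10 scale, were all among the 13. With the dim genes set at their bounds, the medians over all 146 genes were again 1.67, 1.76 and 1.71. They could hardly move, because a bound does not exceed the fitted ratio and most of the 13 already lay below these medians.

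Those 8 genes were AT1G06925, AT1G02070, BG1, AT2G03460, GSTU4, NRT2.5, AT5G64790 and the transcript BP639281, which has no locus. AT1G06925 had ratios of 1.14 and 0.47 at 2 h, 1.99 and 1.89 at 4 h, and 2.54 and 2.54 at 8-9 h. Its bounds were 1.75-fold and 3.83-fold at 2 h and 4 h. AT1G02070 had ratios of 0.74 and 0.20, 1.75 and 1.07, and 1.72 and 1.78, with bounds of 1.39-fold, 2.66-fold and 3.37-fold. A brighter probe of AT1G02070, also not well above background in wild type after ethanol, gave mean ratios of 1.14, 2.24 and 2.81. BG1 (AT3G57270), a beta-1,3-glucanase, had bounds of 1.49-fold, 1.76-fold and 2.26-fold. GSTU4 (AT2G29460), a glutathione S-transferase of the tau class, had bounds of 1.52-fold at 2 h and 1.99-fold at 8-9 h. Its ratios at 2 h were 1.09 and 0.15, and at 4 h wild type was measured on 1 of the 2 arrays. At 8-9 h the bounds were 2.23-fold for AT2G03460, 1.99-fold for AT5G64790 and 2.16-fold for BP639281. Of the 13 genes, 3 have a further probe that passed the filter. That of AT1G06925 gave 0.19, 0.43 and 0.72 and was equally dim in wild type after ethanol, while that of AT3G62590 was well above it on both arrays at each time and gave 0.83, 1.25 and 1.11. At 0 h, 11 members were not well above background in either line on either array.

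Cell wall and surface genes were spread over most of the range of the set. The 7 genes grouped here had ratios of 0.57 to 2.92 at 2 h, 0.82 to 2.96 at 4 h and 1.2 to 3.14 at 8-9 h. GAE2 (AT1G02000) encodes an epimerase that makes UDP-galacturonate, the precursor of pectin. Its levels in Alc::LHY were 9.41 and 9.47 at 0 h, 12.64 and 12.35 at 2 h, 12.54 and 12.60 at 4 h, and 12.82 and 12.73 at 8-9 h. In wild type they were 9.54 and 9.49, 9.57 and 9.59, 9.54 and 9.68, and 9.69 and 9.59, so that wild type stayed between 9.49 and 9.69 throughout. The fitted ratios were 2.92, 2.96 and 3.14 (each ± 0.11), or 7.55-fold, 7.76-fold and 8.8-fold. PDCB5 (AT3G58100), a callose-binding protein of the plasmodesmata family, had ratios of 3.13 and 2.35, 2.87 and 2.73, and 2.63 and 2.50. CYP77A6 (AT3G10570), a cytochrome P450 that hydroxylates cutin monomers, had ratios of 3.09 and 2.46 at 2 h, 2.40 and 1.85 at 4 h, and 1.81 and 1.93 at 8-9 h. GH9B18, FLA7 and FUT13, a glycosyl hydrolase, an arabinogalactan protein and a fucosyltransferase of N-glycans, had fitted ratios of 2.02, 1.78 and 1.49 at 8-9 h.

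Hormone transport and signalling was represented by 4 genes. Their fitted ratios lay between 1.67 and 2.32 at 2 h, between 1.63 and 2.12 at 4 h and between 1.59 and 2.52 at 8-9 h. IAA11 (AT4G28640), a repressor of auxin-responsive transcription, had ratios of 1.86 and 1.48 at 2 h, 1.89 and 2.07 at 4 h, and 1.96 and 2.31 at 8-9 h. LAX1 (AT5G01240), an auxin influx carrier, had ratios of 2.05 and 1.54, 1.75 and 1.51, and 1.68 and 1.5. ATPK7 (AT3G27580) is a protein kinase of the AGC family related to kinases that regulate auxin efflux carriers. Its ratios were 2.44 and 2.19, 2.12 and 2.12, and 2.51 and 2.53, the highest of the 4 genes at each time. BIL4 (AT3G63310), known from brassinosteroid signalling, had ratios of 2.08 and 1.94, 1.85 and 1.42, and 1.87 and 1.58. The wild-type change from 0 h of these 4 genes lay between -0.36 and 0.18.

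The 5 transcription factors had median ratios of 1.47, 1.33 and 1.48 at 2, 4 and 8-9 h, below the medians of the set. OBP1 (AT3G50410), a DOF factor linked to cell cycle control, had ratios of 2.46 and 1.23 at 2 h, 1.82 and 1.45 at 4 h, and 2.45 and 2.02 at 8-9 h. The replicates differed most at 2 h, and the fitted ratios were 1.84, 1.64 and 2.23 (each ± 0.21). DEL3 (AT3G01330), an atypical E2F factor, had fitted ratios of 1.81, 1.68 and 1.48 (each ± 0.12). WRKY45 (AT3G01970), an activator of a phosphate transporter gene, had ratios of 1.65 and 1.29, 1.43 and 1.23, and 1.59 and 1.40. Its level at 0 h differed between the replicates, at 8.47 and 9.57 in Alc::LHY and 8.45 and 9.35 in wild type. The bZIP gene AT2G40620 had ratios of 1.36 and 0.97, 1.2 and 1.22, and 1.39 and 1.11. MYB109 (AT3G55730), an R2R3 MYB factor, was the lowest of the 5, with ratios of 0.78 and 0.48, 0.77 and 0.74, and 0.88 and 1.1.

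**Figure D3:**
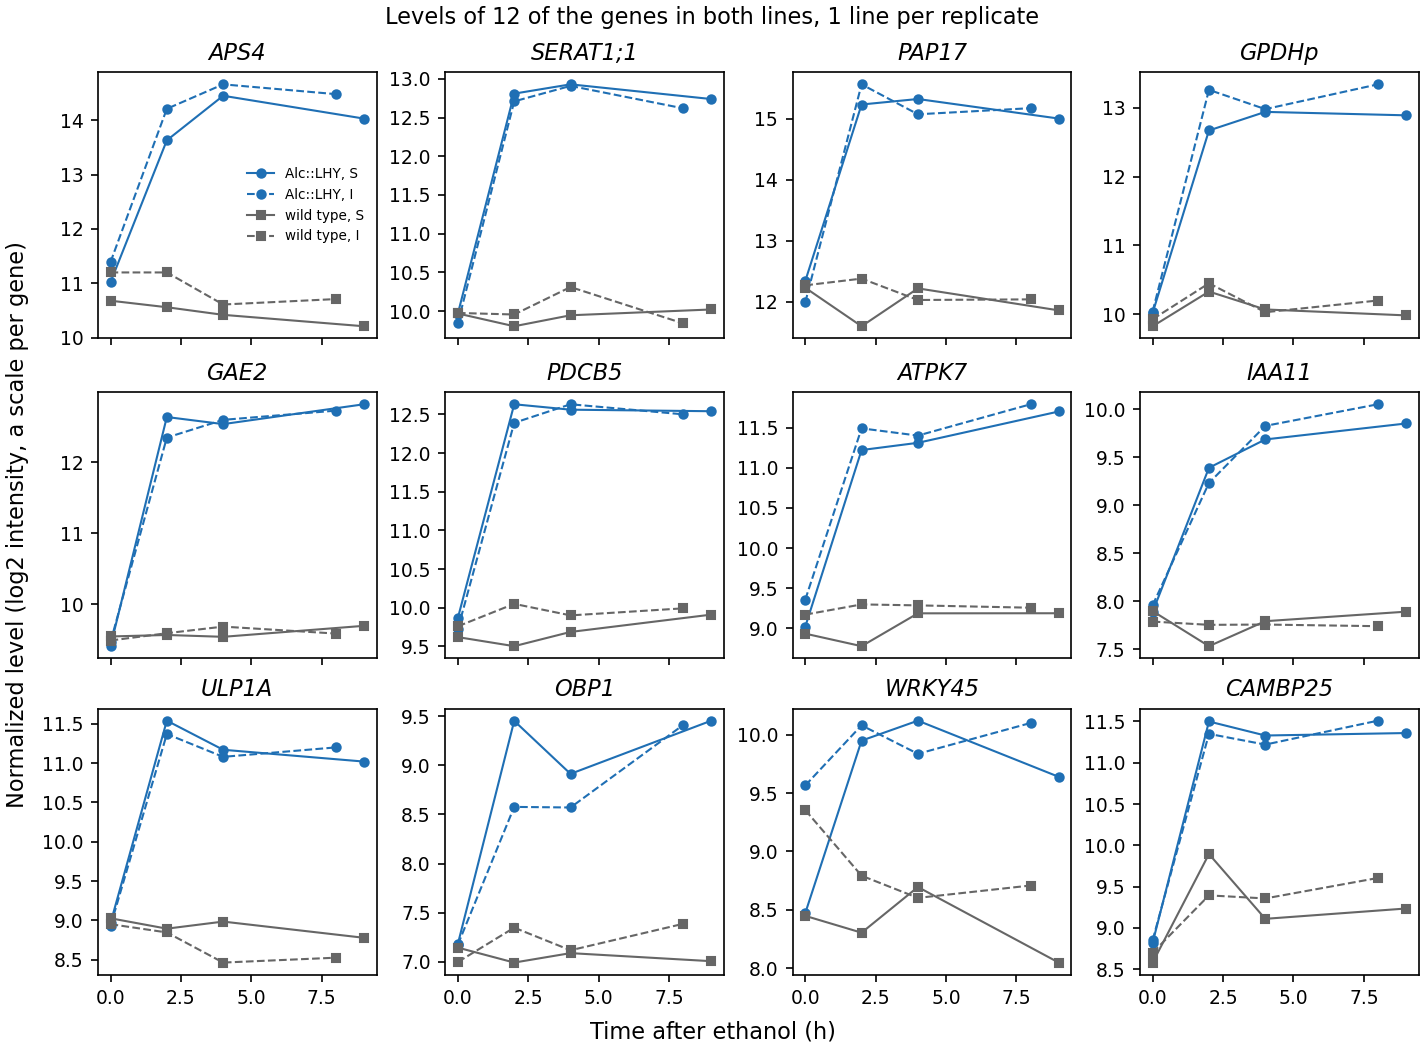
Normalized level in log2 intensity (vertical axes, a separate scale for each gene) against time after ethanol in h (horizontal axes) for 12 of the genes, with Alc::LHY as blue circles, wild type as grey squares, replicate S as solid and replicate I as dashed lines. For each gene the Alc::LHY lines leave the wild-type lines by 2 h and stay above them, as for GAE2 with 12.64 and 12.35 in Alc::LHY and 9.57 and 9.59 in wild type at 2 h.

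Genes of chromatin, DNA and RNA handling were represented by 7 members. ULP1A (AT3G06910), a protease that processes SUMO, had ratios of 2.64 and 2.52 at 2 h, 2.18 and 2.62 at 4 h, and 2.24 and 2.67 at 8-9 h. IYO (AT4G38440), a factor associated with RNA polymerase II that is needed for the onset of differentiation, had ratios of 2.56 and 1.95, 2.01 and 2.01, and 1.94 and 1.94. NTH2, a DNA repair endonuclease, was at 1.65, 1.68 and 1.57 (each ± 0.11). CFIM-25, a subunit of the complex that sets messenger RNA 3' ends, was at 1.56, 1.35 and 1.47 (each ± 0.13). MCM9, of the replicative helicase family, was lower, at 0.94, 1.05 and 1.1 (each ± 0.15). HON4, with a linker histone domain, had a fitted ratio of 2.08 at 4 h from its chosen probe, while the other 2 probes gave 0.07 and 3.03. For HON4 the probes therefore did not describe a common change.

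Detoxification genes included a pair of neighbouring cytochrome P450 genes. CYP76C1 (AT2G45560), an enzyme of linalool oxidation, had ratios of 2.68 and 1.76, 1.96 and 1.82, and 2.48 and 2.08. A brighter probe of CYP76C1, which did not meet the rule, gave 3.99, 3.70 and 3.88. CYP76C2 (AT2G45570) had ratios of 3.12 and 2.56, 3.00 and 2.20, and 2.64 and 2.47, and its other probe gave 1.71, 1.45 and 0.94. Signal shared between such close copies cannot be separated here. UGT71C4, a glycosyltransferase, had fitted ratios of 1.83, 1.82 and 1.58 (each ± 0.09), and PMSR1, which repairs oxidised methionine, had 1.16, 1.13 and 1.31 (each ± 0.13).

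The 5 members that act in plastids or mitochondria had median ratios of 1.75, 1.82 and 1.77 at 2, 4 and 8-9 h. TAAC (AT5G01500) had levels in Alc::LHY of 7.76 and 7.36 at 0 h, 10.23 and 9.58 at 2 h, 10.72 and 10.26 at 4 h, and 10.62 and 10.36 at 8-9 h. In wild type the levels were 7.86 and 7.19, 7.95 and 7.65, 8.37 and 8.02, and 8.28 and 8.00. Both lines were higher at 8-9 h than at 0 h, and the lines differed by 2.1, 2.30 and 2.35 (each ± 0.12) at 2, 4 and 8-9 h. NTT1 (AT1G80300), the plastid ATP/ADP exchanger, had ratios of 2.23 and 2.39, 1.89 and 1.44, and 1.70 and 1.80. UCP3, an uncoupling-type carrier of mitochondria, was at 1.75, 2.00 and 1.70 (each ± 0.13). CCMH, which acts in cytochrome c maturation, was at 1.58, 1.82 and 1.77 (each ± 0.13). GGPS3, a geranylgeranyl diphosphate synthase, had a higher ratio at each later time in both replicates, with 1.46 and 0.99 at 2 h, 1.77 and 1.77 at 4 h, and 2.16 and 2.32 at 8-9 h.

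Trafficking and protein turnover genes had fitted ratios of 0.76 to 2.11 at 2 h, 1.1 to 2.27 at 4 h and 1.06 to 2.25 at 8-9 h over 6 members. RABA5d (AT2G31680), a Rab GTPase of the endosomal system, had ratios of 2.25 and 1.97, 2.36 and 2.18, and 2.26 and 2.23. SEC1A, a regulator of vesicle fusion, and GOS11, a Golgi SNARE protein, had fitted ratios of 1.90 and 1.81 at 2 h and 1.38 and 1.55 at 8-9 h. The F-box gene PP2-B11 was at 1.41, 1.75 and 1.58 (each ± 0.15), and the RING ubiquitin ligase gene ATL9 at 1.74, 1.34 and 1.55 (each ± 0.20). RPN12b, a homologue of a proteasome subunit, was at 0.76, 1.1 and 1.06 (each ± 0.14).

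The other 97 genes have no role stated here, and several of them had ratios as high as those above. AT3G55390 had ratios of 2.84 and 2.84 at 2 h, 3.32 and 3.53 at 4 h, and 3.29 and 2.99 at 8-9 h. AT3G03680 had ratios of 3.43 and 3.25, 3.25 and 2.77, and 2.99 and 2.88. AT4G02540 had 3.50 and 3.17, 3.38 and 2.87, and 2.76 and 2.74. With APS4, PAP17, GAE2, AT3G14910 and AT3G14960, these are the 8 genes of the set with the highest mean fitted ratio after ethanol. Only 51 of the members, and 6515 of the 19265 genes that met the background condition, have a name in words in the gene table. By these names 13.7% of the members (7 genes) and 6.94% of all such genes were cytochrome P450s, oxidases or peroxidases. Transferases made up 11.8% (6 genes) and 5.39%. Transcription factors made up 7.84% (4 genes) and 6.94%, and kinases or receptors 1.96% (1 gene) and 6.6%. With so few genes per class, nothing is read from these shares.

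The shape over time differed between members. The highest fitted ratio fell at 2 h for 43 genes, at 4 h for 47 and at 8-9 h for 56. The ratio at 8-9 h minus that at 2 h had a median of 0.15 and ranged between -1.83 and 1.73. It lay within 0.5 of 0 for 112 genes, above 0.5 for 21 and below -0.5 for 13. The largest rises were those of AT1G06925, AT5G60730, AT1G02070 and AT3G14910. AT3G14910 had ratios of 2.83 and 1.97 at 2 h, 3.06 and 2.60 at 4 h, and 3.80 and 3.50 at 8-9 h. AT5G60730 had ratios of 1.28 and 1.2, 1.93 and 2.19, and 2.12 and 3.1. Both genes were higher at 8-9 h than at 2 h in both replicates. After FMO GS-OX5, the largest drops were those of AT5G65960, AT4G01860 and AT2G23370. AT5G65960 had ratios of 2.91 and 2.25 at 2 h, 2.26 and 1.80 at 4 h, and 1.48 and 1.33 at 8-9 h. AT4G01860 had ratios of 3.44 and 3.33, 2.83 and 2.64, and 2.26 and 2.32. AT2G23370 had ratios of 2.78 and 2.34, 2.83 and 2.02, and 1.42 and 1.61. Another probe of each of these 3 genes had a smaller drop. Its mean ratios were 0.62, 0.29 and 0.38 for AT5G65960, and 2.55, 2.12 and 1.88 for AT4G01860. For AT2G23370 they were 0.81, 0.67 and 0.65.

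**Figure D4:**
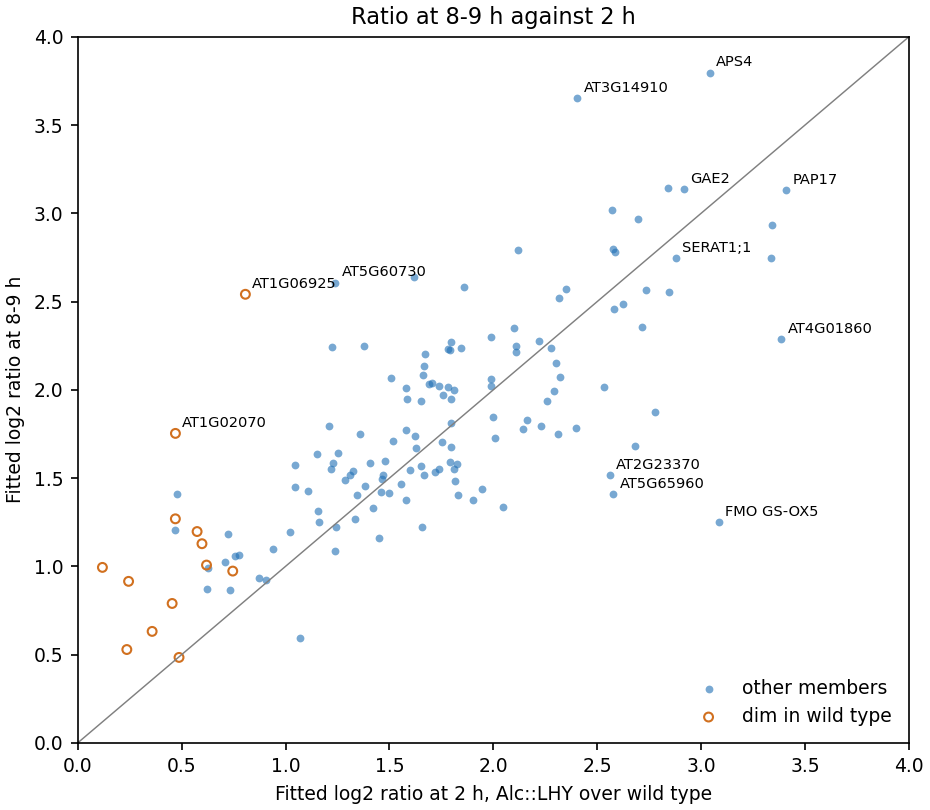
Fitted log2 ratio of Alc::LHY over wild type at 8-9 h (vertical axis) against that at 2 h (horizontal axis), 1 point per gene, with the line of equal ratios in grey and the 13 genes that were dim in wild type as open orange circles. FMO GS-OX5 lies farthest below the line (3.08 at 2 h and 1.25 at 8-9 h) and AT1G06925 farthest above it (0.81 and 2.54).

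CAMBP25 shows a gene that moved in both lines. Its levels in Alc::LHY were 8.82 and 8.85 at 0 h, 11.50 and 11.35 at 2 h, 11.33 and 11.22 at 4 h, and 11.36 and 11.51 at 8-9 h. In wild type they were 8.58 and 8.70, 9.89 and 9.39, 9.11 and 9.36, and 9.23 and 9.60. The ratio was 1.78, 2.04 and 2.02 (each ± 0.13). AT1G78830 and AT5G56980 had the next largest mean wild-type changes. AT1G78830 changed in wild type by 1.11, 0.78 and 0.47 (each ± 0.24) and AT5G56980 by 0.68, 0.66 and 0.72 (each ± 0.41), and neither passed limma's test. In the other direction, wild-type FUT13 changed by -0.42, -0.58 and -0.38 (each ± 0.16), CYP76C1 by -0.23, -0.43 and -0.68 (each ± 0.19) and GOS11 by -0.36, -0.48 and -0.40 (each ± 0.13), and 0 of these 9 changes passed limma's test.

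Several members lay next to each other in the genome. Gene order was taken from the TAIR10.1 gene table, in which 135 members were placed among protein-coding genes, and the rule did not use it. A further member was next door for 12 of the 135, or 8.89%, against 1.06% of 16804 non-member genes that met the background condition. Within 5 genes the shares were 14.8% and 4.92%, and within 10 genes 20.0% and 9.61%. The 12 genes formed 6 pairs, which were AT1G01930 with AT1G01940, GAE2 with SEC1A, AT1G78450 with AT1G78460, AT1G78820 with AT1G78830, CYP76C1 with CYP76C2, and AT4G25770 with AT4G25780. Chromosome 1 held 44 of the 135, or 32.6%, against 26.2% of all genes that met the background condition. The largest gap in ratio within a pair was between GAE2 and SEC1A, at 2.96 and 1.36 at 4 h. AT4G25770 and AT4G25780 had ratios of 2.08 and 2.13 at 4 h. Whether the genes of the 6 pairs are close copies that share probe signal was not examined.

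Genes next door that were not members were set against all genes tested, as shares and with no test. Of 193 such genes, 25 had a ratio over 1 at 2 h, 24 at 4 h and 18 at 8-9 h, or 13.0%, 12.4% and 9.33%, against 2.83%, 3.32% and 2.86% of all genes tested. With an adjusted p under 0.05 by limma, 20.7%, 26.9% and 28.5% were higher, against 6.36%, 17.3% and 16.8%. These neighbours are protein-coding genes only, while just 18497 of the 21471 genes tested have a locus, so the sets differ in kind. At distances of 2 to 10 genes the share with a ratio over 1 was 3.24% to 6.03% at 2 h, 3.91% to 7.29% at 4 h and 2.79% to 6.77% at 8-9 h. The share that passed as higher was 5.59% to 15.6%, 18.2% to 28.8% and 16.2% to 26.3% at these distances, and at 4 h the 28.8% at a distance of 6 genes was above the 26.9% next door. The highest at 4 h, named after their values were seen, were EMB3120 next to AT3G14910, GH9B17 next to GH9B18, RUG2 next to AT5G48320 and HP6 next to PP2-B11. EMB3120 had ratios of 3.16 and 2.56 at 2 h, 3.80 and 4.24 at 4 h, and 4.06 and 4.96 at 8-9 h. RUG2 (AT5G48330) had ratios of 3.62 and 3.73, 3.78 and 4.03, and 3.79 and 3.96. At 8-9 h their fitted ratios of 4.51 and 3.87 lay above that of APS4, the highest member at that time, at 3.80. GH9B17, CYP76C3, the neighbour of CYP76C2, and UGT71C3, the neighbour of UGT71C4, carry the names of their neighbours' families. UGT71C3 had fitted ratios of 2.57, 1.93 and 1.91. The part of shared probe signal in the ratios of such neighbours was not tested.

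**Figure D5:**
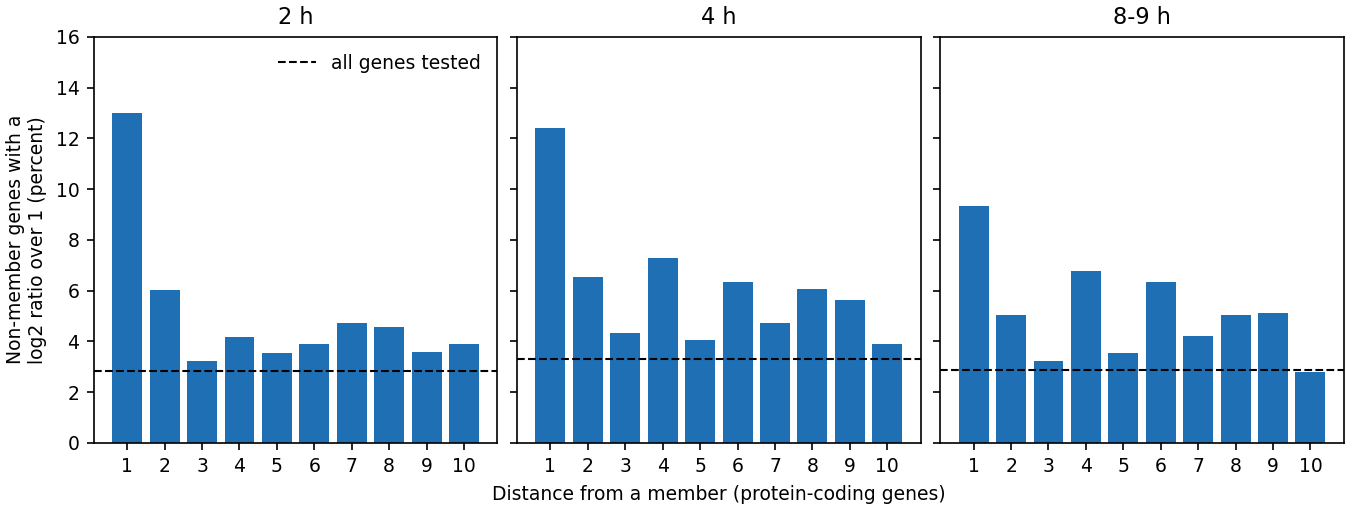
Share of non-member genes with a log2 ratio of Alc::LHY over wild type above 1 (vertical axes, percent) by their distance from a member in protein-coding genes (horizontal axes) at 2, 4 and 8-9 h after ethanol, with all genes tested as the dashed line. The bar for genes next door stands at 13.0%, 12.4% and 9.33%, above the dashed line at 2.83%, 3.32% and 2.86%. The dashed line includes transcripts without a locus, while the bars hold protein-coding genes only.

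The non-member genes whose pattern was most like the set's median were sought by Pearson's correlation over the 8 arrays, which share the step between 0 h and the later times. They were SBTI1.1 (r = 0.996), OPT4 (0.994), AT2G34990 (0.993), CLF (0.993) and AT4G29640 (0.991), and the members' own correlations had a median of 0.959. SBTI1.1, a subtilase, had ratios of 5.68 and 5.23 at 2 h, 5.92 and 5.67 at 4 h, and 5.61 and 5.75 at 8-9 h, which equals 43.9-fold, 55.5-fold and 51.4-fold. OPT4, an oligopeptide transporter, had ratios of 3.98 and 3.68, 3.95 and 3.63, and 3.75 and 3.79. CLF, a histone methyltransferase of the Polycomb group, had ratios of 3.27 and 2.24, 3.07 and 2.65, and 2.98 and 2.81. All 5 had larger ratios than the set's median at each time. CLF lies next to AT2G23370 and AT2G34990 next to ATL9.

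Other probes of the same genes gave a second reading. In 57 members, 67 further probes passed the filter, and 26 of them in 25 genes met the rule as well. All 67 had a ratio above 0 at 4 h, the lowest at 0.07, and their median was 1.27 against 1.83 for the chosen probes of the same genes. The rule required high ratios at 4 h of those 26, so nothing is read from the sign or the median of all 67. At 2 h not all were above 0, as a probe of HON4 was at -0.13. The reading differed by over 1 at 4 h for 17 probes in 16 genes, and was the lower one in 16 of the 17. Beside APS4, HON4, SERAT1;1, CYP76C1 and CYP76C2, these genes were AT1G03230, AT1G06925, AT1G55820, AT1G73875, AT1G78820, AT1G80230, AT2G23370, AT3G12510, AT4G15450, AT5G56980 and AT5G65960. Further genes differed by over 1 at 2 h, such as FMO GS-OX5 with 1.59 against 3.08 and DEL3 with 0.72 against 1.81. For 138 of the 146 genes the brightest probe met the rule.

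The limits of the rule cut through a continuous range. At 2 h the genes just inside the lower limit were NUDT2, NM_115127 and AT1G14780, at 0.500, 0.502 and 0.503 on the authors' log10 scale. Just outside were CKI1, A_84_P750128 and AT1G78890, at 0.499, 0.496 and 0.496. Inside the upper limit were AT4G01860, AT4G02540 and AT3G29375, at 1.09 to 1.1, and outside it XPO1B, TC402207 and ACBP3, at 1.11. For the late times FMO GS-OX5, AT1G14780 and AT5G56980 were inside at 0.400, 0.400 and 0.408, and AT5G43530, TMM and AT2G34140 outside at 0.399, 0.394 and 0.392. At 0 h AT5G04210, TA25679_3702 and AT1G77660 were inside at 0.149, 0.146 and 0.146, and AT5G10410, PLDGAMMA3 and AT4G20350 outside at 0.150, 0.151 and 0.151. The genes that failed only 1 limit numbered 66, 76, 70 and 121 for these 4 limits.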

How the data were processed

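Each array came as its own scanner file from Agilent Feature Extraction 10.7.3.1, per the file headers and the submitters' processing notes. The deposited median spot and background signals are intensity values on a linear scale, 1 per dye. The authors' deposited table holds log10 ratios, which equal the scanner software's ratio turned to Alc::LHY over wild type (correlation over all features at least 0.999999, largest difference 0.0049, on the 0 h array of replicate S). Its column medians were 0, and 24.3% to 30.0% of its values were exactly 0. Other flags per spot, such as well above background, are as deposited. No spot was saturated (0).

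Spot signals were background-corrected with normexp (offset 50) and loess-normalized within arrays in limma 3.58.1 (R 4.3.3, statmod 1.5.0). Control spots had weight 0, and 161 outlier spots were left out. The offset draws ratios of dim spots toward 0. A probe was kept when well above background on at least 2 arrays with values on at least 6, which left 28465 of 43603 probes. A member is represented by its brightest probe that met the rule, any other gene by its brightest probe. The ratio fit had a coefficient per time and a dye term, which is also the replicate block (3 residual degrees of freedom, 3.59 prior). The separate-channel fit followed Aquantile normalization, with line and time groups, dye and replicate terms (6 residual, 3.61 prior, intraspot correlation 0.336). Adjusted p-values are Benjamini-Hochberg over all genes within a contrast, and a gene was called under 0.05. The fits were tested on simulated data. Precision is limited by how few arrays there are.

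Of 35161 accessions, 26259 could be named from RefSeq's TAIR10.1 table. Because the array grid refers to an earlier build, positions are left out, and no probe or promoter sequence was used here. The members, gene lists, roles and named genes were chosen with earlier results of these data known. Genes were named by a rule: the 8 highest in the authors' table, the 4 largest rises and drops between 2 h and 8-9 h, transcription factor and hormone genes, genes whose probes disagree, the 3 largest wild-type changes each way, genes at the limits, and the 5 most alike. Further members were named as examples of a role, after their values were seen.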

Additional observations from a re-analysis of the deposited data

How the results depend on the processing

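The set itself depended on its limits. Its median ratio stayed above 0 in each alternative run, but the rule required high ratios on the same arrays, so nothing is read from this. It held 146 genes, against 267 without the limit at 0 h, 222 without the upper limit at 2 h, 94 with the lower limits raised by 0.1 and 223 with them lowered by 0.1. The same limits on the loess ratios gave 117 genes, of which 68 were shared, and 138 genes were left when the brightest probe had to meet the rule, an alternative added after seeing the data. The median ratio of 1.67, 1.76 and 1.71 at 2, 4 and 8-9 h was 2.41, 2.40 and 2.30 with the scanner software's ratio, and 1.42, 1.60 and 1.92 with median centring, which moved the median of all genes by -0.12, -0.10 and 0.11. The mean of a gene's probes gave 1.60 at 8-9 h. Leaving out each array in turn gave 1.52 to 1.85 at 2 h, 1.73 to 1.82 at 4 h and 1.61 to 1.84 at 8-9 h. Without the replicate block the medians were 1.67, 1.76 and 1.71. The wild-type calls at 8-9 h, 2 with the block, numbered 1 without the block, 1 without the filter on dim probes, 0 with median centring and 6 with the scanner software's signals, and at 4 h they numbered 1 without background subtraction. Leaving out an array gave 0 to 2 at 2 h, 0 at 4 h and 0 at 8-9 h, with the full fit's intraspot correlation; the lone array of a time is then assumed to vary like the others. The calls in Alc::LHY ranged over 103 to 130, 114 to 139 and 122 to 143 with an array left out. Members with another member within 5 genes numbered 20, against 12 next door, an alternative chosen after seeing the data. The causes were not tested. The planned search of promoters for motifs was not run. Groups of 2 arrays limit all of these values, and ratios of the 13 genes that were dim in wild type are limited by the signal over background.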
